A study of Mus musculus with 19 samples.

Results

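The liver levels of 10 genes that mark Kupffer cells and other macrophages were followed in 19 mice: Clec4f, Vsig4, Timd4, Cd5l, Marco, Adgre1, Csf1r, C1qa, C1qb and C1qc. The genes were chosen by name, and each of the 10 symbols matched 1 of the 49315 gene identifiers in the files. All mice were female and were either Gramd1c+/+ or Gramd1c−/−, in which the gene for Aster-C, a protein that carries cholesterol between membranes, is disrupted by a knockout-first allele in all tissues. The strain name, as the paper writes it, is C57BL/6N-Atm1Brd Gramd1ctm1a(KOMP)Wtsi/JMmucd, and the paper does not describe its Atm1Brd part. The Gramd1c+/+ mice were littermates from heterozygous crosses. From 8 weeks of age the mice ate a synthetic diet for 4 weeks, with cholesterol at 0.02% of its weight (low) or at 0.2% (high), and livers were taken after perfusion with saline, in most mice after a short fast. There were 5 Gramd1c+/+ and 4 Gramd1c−/− mice on the low cholesterol diet and 5 mice of each genotype on the high cholesterol diet. Each liver gave 1 RNA sequencing library, and mice are numbered here within their group.

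Kupffer cells are the macrophages that live in the sinusoids of the liver, where they clear particles, microbes and aged red cells from the blood. Most descend from precursors that seed the liver before birth and then maintain themselves, and when they are lost, monocytes from the blood can enter and take on the same identity. They hold a gene programme of their own, which includes the lectin Clec4f, beside genes that all macrophages share, such as the receptor for their main growth factor, Csf1r. They are also a main source of the 3 chains of complement C1q, the molecule that starts the classical complement pathway. In whole liver RNA, fewer cells of a type and less RNA per cell cannot be told apart, so every level below is a level per amount of liver RNA.

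The libraries held between 27149972 and 34669648 counts. Gramd1c was at 1.07 to 3.61 TPM in the 9 Gramd1c−/− livers and at 9.56 to 16 TPM in the 10 Gramd1c+/+ livers. One field of the labels names adipose tissue and another names liver: the hepatocyte gene Alb was at 44237 TPM or more in every library, while Adipoq, which fat cells make, was at most 0.698 TPM in all but 1 library. That library, Gramd1c+/+ low cholesterol mouse 2, had Adipoq at 9.46 TPM and held 581 TPM of adrenal marker genes in sum, against at most 3.86 TPM in the other 18. Gramd1c−/− high cholesterol mouse 5 stood apart on the first principal component over all genes, and mouse 3 of that group had the highest summed level of bile duct cell markers, 218 TPM. Leaving out the first 2 of these libraries changed no call on the macrophage genes.

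All 10 genes were well detected in every liver. TPM is a count divided by gene length and scaled to the same fixed sum in each library, so that levels can be set side by side between genes. The mean over the 19 mice was highest for Cd5l, at 137 TPM, followed by C1qa at 114, Clec4f at 98.7, C1qb at 84.9, C1qc at 51.1 and Vsig4 at 45.6 TPM. Csf1r averaged 24.7, Adgre1 13.7, Timd4 9.07 and Marco 7.06 TPM. C1qb was above C1qc, Vsig4 above Csf1r and Csf1r above Adgre1 in all 19 mice. The other 6 neighbours in the order changed places in some livers: Cd5l was above C1qa in 14 of 19 mice, C1qa above Clec4f in 16, Clec4f above C1qb in 17, C1qc above Vsig4 in 14, Adgre1 above Timd4 in 17 and Timd4 above Marco in 15. In counts, the lowest value was 42 for Marco and the highest 11124 for Cd5l.

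**Figure D1:**
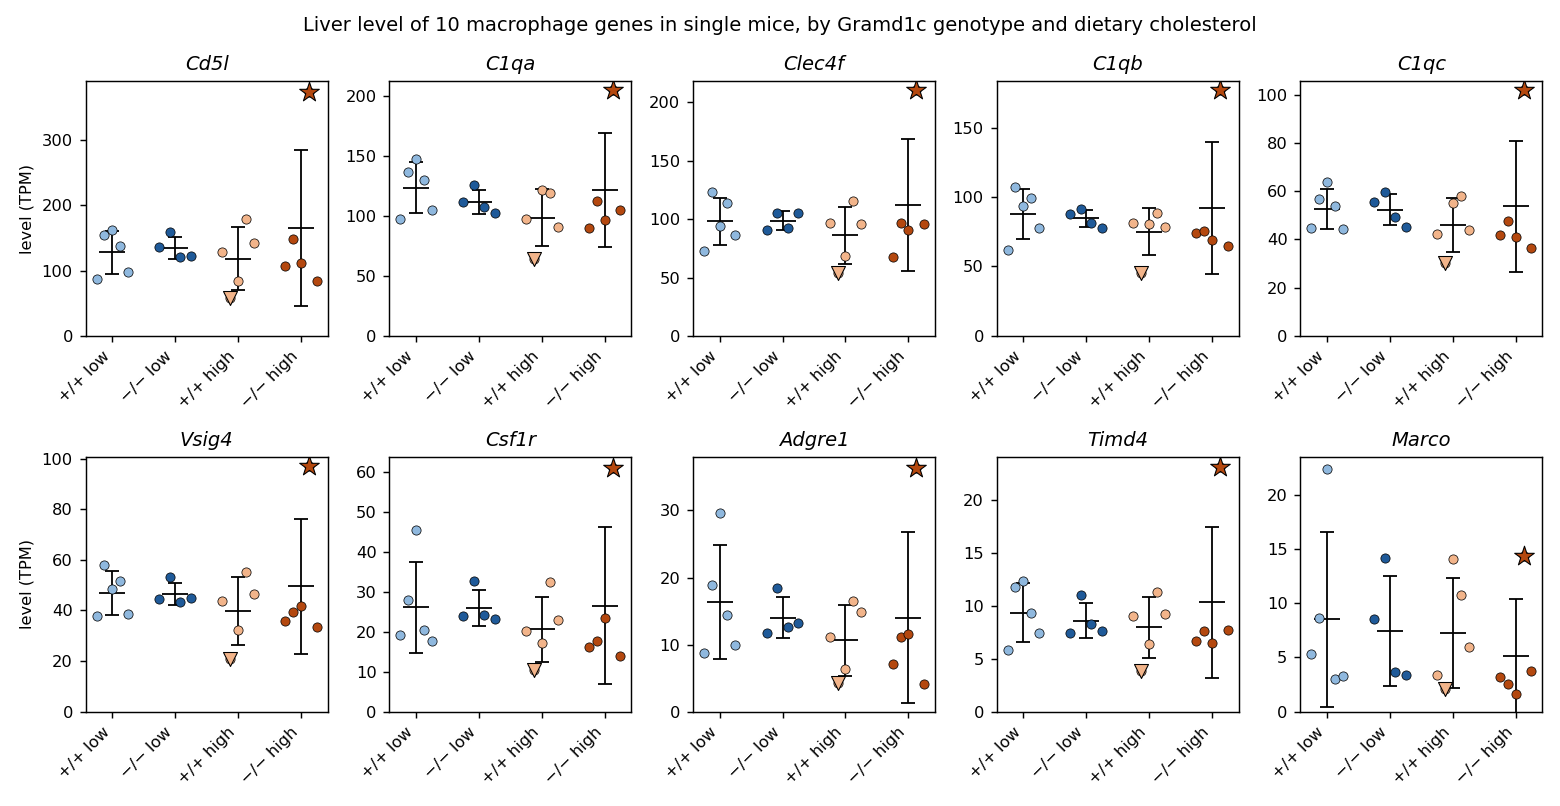
Level (TPM, linear axes from 0) of each of the 10 genes in single mice, 1 point per mouse, by genotype (+/+ or −/−) and diet (low or high cholesterol), with the mean and SD of each group. The star is Gramd1c−/− high cholesterol mouse 4, highest of all 19 mice for every gene but Marco, and the triangle is Gramd1c+/+ high cholesterol mouse 2, lowest for every gene but Adgre1 and Marco.

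Clec4f, Vsig4, Timd4 and Cd5l are held largely by resident Kupffer cells within the liver. Clec4f is a C-type lectin that binds sugars and desialylated glycoproteins, and in the mouse it is confined to Kupffer cells. With low dietary cholesterol, Clec4f was at 73, 123, 94.6, 114 and 86.2 TPM in the Gramd1c+/+ mice and at 91.1, 105, 92.6 and 106 TPM in the Gramd1c−/− mice. With high dietary cholesterol, it was at 96.8, 53.8, 68.6, 116 and 95.5 TPM in the Gramd1c+/+ mice and at 67.4, 96.4, 90.4, 210.4 and 95.5 TPM in the Gramd1c−/− mice. The group means were 98.1 ± 20.3 TPM (SD, n = 5), 98.7 ± 7.91 (n = 4), 86.1 ± 24.7 (n = 5) and 112 ± 56.3 (n = 5), in the same order of groups. The 4 groups overlapped, and the largest mean belonged to the group that held the highest single mouse. Without that mouse the other 4 Gramd1c−/− mice on high cholesterol lay between 67.4 and 96.4 TPM.

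Vsig4 is a complement receptor of resident macrophages that binds C3b-coated particles. Vsig4 stood, on the low cholesterol diet, at 37.7, 58.1, 48.7, 51.7 and 38.7 TPM in the Gramd1c+/+ mice and at 44.4, 53.1, 43.5 and 45 TPM in the Gramd1c−/− mice. On high cholesterol it stood at 43.8, 20.8, 32.5, 55.2 and 46.3 TPM in the Gramd1c+/+ mice and at 36, 39.2, 41.9, 96.9 and 33.4 TPM in the Gramd1c−/− mice. Again 1 Gramd1c−/− and 1 Gramd1c+/+ mouse on the high cholesterol diet marked the ends of the range, 96.9 and 20.8 TPM. Timd4 (TIM-4) binds phosphatidylserine on dying cells and marks the long-lived resident pool of Kupffer cells. Among mice fed low cholesterol, Timd4 was at 5.82, 11.7, 12.4, 9.35 and 7.4 TPM in the Gramd1c+/+ mice and at 7.4, 11, 8.31 and 7.58 TPM in the Gramd1c−/− mice. Among those fed high cholesterol, it was at 9.06, 3.87, 6.4, 11.3 and 9.2 TPM in the Gramd1c+/+ mice and at 6.66, 7.57, 6.51, 23.1 and 7.71 TPM in the Gramd1c−/− mice. Its groups overlapped as well. Without Gramd1c−/− high cholesterol mouse 4, its levels ran from 3.87 to 12.4 TPM.

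Cd5l (AIM), a secreted scavenger protein made by macrophages under control of the liver X receptor, had the highest mean level and the widest absolute range. The level of Cd5l on low cholesterol was 87.6, 154, 162, 138 and 98.4 TPM in the Gramd1c+/+ mice and 136, 158, 122 and 122 TPM in the Gramd1c−/− mice. Its level on high cholesterol was 128, 58.2, 84.2, 178 and 143 TPM in the Gramd1c+/+ mice and 107, 149, 111, 374 and 84.7 TPM in the Gramd1c−/− mice. The group means were 128 ± 33.3 TPM (SD, n = 5), 134 ± 17.3 (n = 4), 118 ± 47.7 (n = 5) and 165 ± 119 (n = 5). The highest mouse had 6.41 times the level of the lowest, and both were on the high cholesterol diet.

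The sequences just before the start sites of 3 of these 4 genes are shown because the genes rose and fell together from mouse to mouse, as described below. They are from RefSeq (GRCm38.p6), read 5′ to 3′ on the strand of the gene, and end at the base before the RefSeq start. Vsig4 and Cd5l were each other's closest match among all genes tested, and Timd4 was the second closest to Vsig4.
Vsig4 (chrX:96293439-96293688, minus strand): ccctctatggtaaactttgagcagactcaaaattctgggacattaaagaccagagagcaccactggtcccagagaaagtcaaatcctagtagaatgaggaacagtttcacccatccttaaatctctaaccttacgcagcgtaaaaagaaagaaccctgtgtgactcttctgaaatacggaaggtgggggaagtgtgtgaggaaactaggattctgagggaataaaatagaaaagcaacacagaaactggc
Cd5l (chr3:87357631-87357880, plus strand): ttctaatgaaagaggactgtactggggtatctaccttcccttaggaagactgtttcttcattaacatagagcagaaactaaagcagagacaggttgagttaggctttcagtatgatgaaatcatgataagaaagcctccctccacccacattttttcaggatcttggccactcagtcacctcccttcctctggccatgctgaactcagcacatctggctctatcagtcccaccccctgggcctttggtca
Timd4 (chr11:46810549-46810798, plus strand): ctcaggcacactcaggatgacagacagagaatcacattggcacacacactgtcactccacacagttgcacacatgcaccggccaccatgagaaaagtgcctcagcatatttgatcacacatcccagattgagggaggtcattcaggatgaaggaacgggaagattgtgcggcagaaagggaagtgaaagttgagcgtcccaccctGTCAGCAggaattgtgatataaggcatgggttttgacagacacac
The 250 bases upstream of 7 of the 10 genes were in the table used, and those of C1qa, Adgre1 and Csf1r were not. They were searched on both strands for GAGGAAGT, a site of the macrophage factor PU.1, for TGCTGAC, part of the site of MAF factors, and for TTGCGCAA, a palindromic site of C/EBP factors. Capitals in Timd4 mark its 1 match, TGCTGAC read on the opposite strand, 45 to 39 bases before the start. Over all 32851 promoters of the same length, 3.81% held TGCTGAC, 2.44% held GAGGAAGT and 0.164% held TTGCGCAA, and no 2 matches overlapped in these windows. Vsig4, Cd5l, Clec4f, C1qb and Marco held none of the 3 strings in this window.

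Adgre1 encodes F4/80, the classical surface marker of mouse macrophages, and Csf1r encodes the receptor for the growth factors CSF1 and IL-34 on which they depend. Neither gene is confined to Kupffer cells. With low dietary cholesterol, Adgre1 was at 8.81, 18.9, 29.7, 14.4 and 10.01 TPM in the Gramd1c+/+ mice and at 11.7, 18.5, 12.6 and 13.3 TPM in the Gramd1c−/− mice. With high dietary cholesterol, it was at 11.2, 4.23, 6.38, 16.4 and 14.9 TPM in the Gramd1c+/+ mice and at 7.15, 11.1, 11.5, 36.3 and 4.1 TPM in the Gramd1c−/− mice. Gramd1c+/+ low cholesterol mouse 3 and Gramd1c−/− high cholesterol mouse 4 were high, and Gramd1c−/− high cholesterol mouse 5 and Gramd1c+/+ high cholesterol mouse 2 were low. Csf1r stood, on the low cholesterol diet, at 19.2, 27.9, 45.4, 20.5 and 17.7 TPM in the Gramd1c+/+ mice and at 23.9, 32.7, 24.1 and 23.1 TPM in the Gramd1c−/− mice. On high cholesterol it stood at 20.1, 10.4, 17.1, 32.5 and 22.9 TPM in the Gramd1c+/+ mice and at 16.2, 17.7, 23.5, 61.1 and 14 TPM in the Gramd1c−/− mice. The same 4 mice were at the ends for both genes. Csf1r overlaps Hmgxb3 on the opposite strand, and whether the counting used strand is not given in the sources used here. Hmgxb3 had at most 521 counts in a library, against 711 to 4367 for Csf1r.

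Marco, a class A scavenger receptor for bacteria and particles, varied most. Among mice fed low cholesterol, Marco was at 5.33, 8.63, 22.4, 3.05 and 3.27 TPM in the Gramd1c+/+ mice and at 8.54, 14.1, 3.7 and 3.42 TPM in the Gramd1c−/− mice. Among those fed high cholesterol, it was at 3.41, 2.07, 14.1, 10.8 and 5.99 TPM in the Gramd1c+/+ mice and at 3.21, 2.52, 1.62, 14.4 and 3.72 TPM in the Gramd1c−/− mice. Values above 10 TPM were found in each of the 4 groups, and the same groups also held values under 4 TPM. The highest mouse, Gramd1c+/+ low cholesterol mouse 3, had 13.8 times the level of the lowest, Gramd1c−/− high cholesterol mouse 3, on 580 and 42 counts.

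C1qa, C1qb and C1qc encode the A, B and C chains of C1q, which assemble in equal numbers into the bouquet-shaped recognition molecule. The genes lie side by side on the minus strand of chromosome 4 (GRCm38), C1qb at chr4:136880129-136886187, C1qc at chr4:136889804-136893065 and C1qa at chr4:136895917-136898803, within 18675 bases. The level of C1qa on low cholesterol was 98.1, 137, 148, 130.01 and 105 TPM in the Gramd1c+/+ mice and 112, 126, 108 and 102 TPM in the Gramd1c−/− mice. Its level on high cholesterol was 97.9, 64.1, 122, 119.5 and 90.7 TPM in the Gramd1c+/+ mice and 89.9, 113, 97.1, 206 and 105 TPM in the Gramd1c−/− mice. The ends of the range were again Gramd1c−/− mouse 4 and Gramd1c+/+ mouse 2 of the high cholesterol diet. C1qb ran from 45.7 to 177 TPM and C1qc from 30.3 to 102 TPM, with the same mice at the ends. Per length, C1qa was the highest of the 3 and C1qc the lowest in every mouse.

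The ratios of the C1q chains to each other varied less over the 19 livers than their levels, which differed 3-fold or more. That range of levels was set by Gramd1c−/− mouse 4 and Gramd1c+/+ mouse 2 of the high cholesterol diet. Without these mice C1qa ran from 89.9 to 148 TPM. The ratio of C1qa to C1qc was 2.01 to 2.89 over the 19 mice, a 1.44-fold range. The ratio of C1qb to C1qc was 1.38 to 1.91, a 1.39-fold range. In contrast, the ratio of Adgre1 to Clec4f ranged 7.32-fold, from 0.0429 in Gramd1c−/− high cholesterol mouse 5 to 0.314 in Gramd1c+/+ low cholesterol mouse 3. That of Marco to Clec4f ranged 13.2-fold. Vsig4 tracked Clec4f more closely, with a 1.53-fold range of their ratio. The range of the ratio to Clec4f was 1.82-fold for Timd4, 1.87-fold for C1qa, 2-fold for Cd5l and 3.26-fold for Csf1r.

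The stretches before C1qb and C1qc are shown because the genes are neighbours and varied together. For C1qc, 99 bases are shown, those that lie outside the gene as the files place it.
C1qb (chr4:136886201-136886450, minus strand): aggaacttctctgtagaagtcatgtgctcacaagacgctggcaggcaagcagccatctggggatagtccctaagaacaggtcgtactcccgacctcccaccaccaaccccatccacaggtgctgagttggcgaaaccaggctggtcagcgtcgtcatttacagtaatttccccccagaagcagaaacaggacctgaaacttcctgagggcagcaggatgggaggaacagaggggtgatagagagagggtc
C1qc (chr4:136893066-136893164, minus strand): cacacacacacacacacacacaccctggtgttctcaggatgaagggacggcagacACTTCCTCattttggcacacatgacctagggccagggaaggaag
Capitals in C1qc mark GAGGAAGT read on the opposite strand, the string listed above for PU.1, 195 to 188 bases before the RefSeq start. C1qb held none of the 3 strings, and the match in C1qc is a description of letters and not of binding.

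The spread between mice of one group was wide for these genes. On the log2 scale of CPM, counts scaled by library size, the SD within groups was 1.13 for Marco, 0.76 for Adgre1, 0.563 for Csf1r, 0.53 for Cd5l and 0.519 for Timd4. For the other 5 genes it lay between 0.341 (C1qa) and 0.388 (Vsig4). The median SD over genes of similar level, in 10 bins over all genes tested, was between 0.232 and 0.317, and each of the 10 genes exceeded 80.8% or more of the genes in its own bin.

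Whether loss of Gramd1c changed these genes was tested in each diet and over both. None of the 10 genes was called in any of these 3 comparisons by edgeR's quasi-likelihood test at a Benjamini-Hochberg adjusted p of 0.05 over 15016 genes, and none had an unadjusted p below 0.05. Over all genes, 0.00666% were called on the low cholesterol diet, 0.00666% on the high cholesterol diet and 0.00666% over both diets, that is 1 gene each time. DESeq2 and limma voom called none of the 10 either. On the low cholesterol diet, log2 differences (Gramd1c−/− minus Gramd1c+/+) ran from −0.23 for Adgre1 to 0.075 for Cd5l, 2 of 10 positive, with a median of −0.032 against −0.0014 over all genes. On the high cholesterol diet they ran from −0.62 for Marco to 0.43 for Cd5l, 9 of 10 positive, with a median of 0.27 against 0.0088 over all genes. None of the 10 separated the genotypes without overlap in TPM on either diet, as 1.73% of all genes did on low and 0.246% on high cholesterol, shares so low that a count of 0 among 10 tells little.

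Over both diets, the log2 difference between genotypes was 0.17 ± 0.156 (SE) for Clec4f, 0.12 ± 0.168 for Vsig4, 0.10 ± 0.224 for Timd4 and 0.25 ± 0.225 for Cd5l. It was 0.054 ± 0.317 for Adgre1, 0.14 ± 0.244 for Csf1r and −0.42 ± 0.477 for Marco. For the C1q chains it was 0.039 ± 0.148 (C1qa), 0.086 ± 0.163 (C1qb) and 0.067 ± 0.165 (C1qc). The edgeR adjusted p was 0.999 for each. For 9 of the 10 genes the 95% interval lay within a 2-fold change in either direction, as for Clec4f, −0.16 to 0.49, and C1qa, −0.27 to 0.35. The exception was Marco, whose interval ran from −1.41 to 0.58.

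The diet comparison asked whether more dietary cholesterol changed the same genes. None of the 10 was called in the Gramd1c+/+ mice, in the Gramd1c−/− mice or over both genotypes by edgeR, DESeq2 or limma voom, and none had an unadjusted p below 0.05 by edgeR. Of all genes, 0.44% were called by edgeR in the Gramd1c+/+ mice, 0.326% in the Gramd1c−/− mice and 1.3% over both. In the Gramd1c+/+ mice all 10 log2 differences (high minus low) were below 0, from −0.64 for Adgre1 to −0.11 for Cd5l, with a median of −0.20 against 0.0068 over all genes. In the Gramd1c−/− mice they ran from −0.60 for Marco to 0.24 for Cd5l, 6 of 10 above 0. None of the 10 separated the diets without overlap in TPM, against 1.72% of all genes in the Gramd1c+/+ and 3.46% in the Gramd1c−/− mice, where the same holds.

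Over both genotypes, the log2 difference between diets was −0.0078 ± 0.156 (SE, edgeR adjusted p = 0.985) for Clec4f, −0.089 ± 0.168 (0.799) for Vsig4, 0.0075 ± 0.224 (0.99) for Timd4 and 0.069 ± 0.225 (0.888) for Cd5l. It was −0.35 ± 0.317 (edgeR adjusted p = 0.553) for Adgre1, −0.19 ± 0.244 (0.692) for Csf1r and −0.39 ± 0.474 (0.67) for Marco. For the C1q chains it was −0.091 ± 0.148 (edgeR adjusted p = 0.76), −0.05 ± 0.163 (0.888) and −0.079 ± 0.165 (0.821) for C1qa, C1qb and C1qc. The interval lay within a 2-fold change for 8 of the 10 genes. Those of Adgre1, −1.01 to 0.31, and Marco, −1.38 to 0.60, reached further.

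The interaction asked whether the diet effect differed between the genotypes. None of the 10 genes was called by edgeR, none had an unadjusted p below 0.05, and neither DESeq2 nor limma voom called any. Over all genes 0% were called. The log2 interaction (the high minus low difference of Gramd1c−/− mice, less that of Gramd1c+/+ mice) was 0.30 ± 0.312 (SE) for Clec4f, 0.26 ± 0.336 for Vsig4, 0.43 ± 0.449 for Timd4, 0.35 ± 0.451 for Cd5l and 0.57 ± 0.635 for Adgre1. It was 0.31 ± 0.49 for Csf1r, −0.41 ± 0.949 for Marco, 0.36 ± 0.297 for C1qa, 0.26 ± 0.326 for C1qb and 0.15 ± 0.33 for C1qc. Every edgeR adjusted p was 0.9999. For 5 of the 10 genes the intervals lay within 2-fold, and those of Adgre1 (−0.76 to 1.90), Cd5l, Timd4, Csf1r and Marco reached further.

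Many signs changed when 1 liver was left out. Without Gramd1c−/− high cholesterol mouse 4, 2 of the 10 genes were above 0 in the genotype comparison over both diets, where 9 had been with all mice. For the interaction the count fell from 9 to 1, and for genotype on high cholesterol from 9 to 1. Vsig4 went from 0.12 to −0.052 over both diets and from 0.26 to −0.091 for the interaction, and Adgre1 from 0.57 to −0.11 for the interaction. In the diet comparison over both genotypes all 10 were then below 0, from −0.79 (Marco) to −0.16 (Clec4f), and Vsig4 (−0.26), Adgre1 (−0.69) and Csf1r (−0.45) had an unadjusted p below 0.05. No edgeR adjusted p fell below 0.144 in that comparison. On high cholesterol Marco then differed by −1.42 between the genotypes, the 1 gene with an unadjusted p below 0.05 there, at an edgeR adjusted p of 0.9996.

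**Figure D2:**
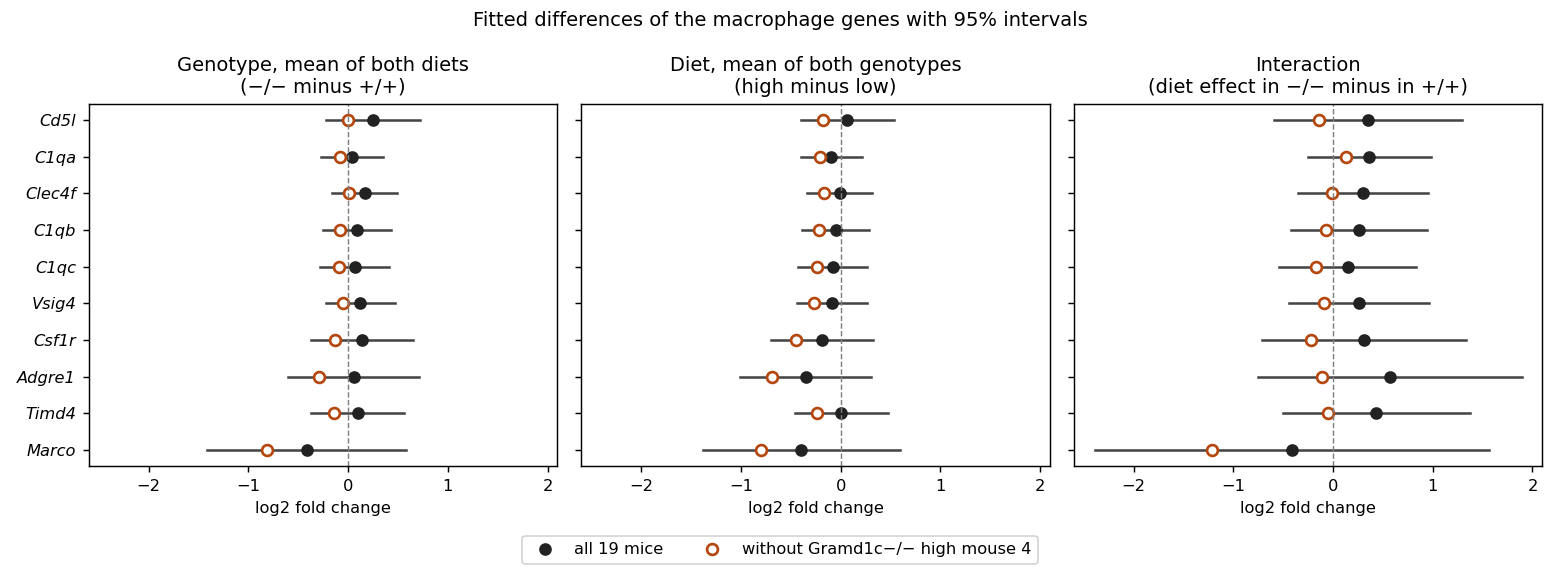
Fitted log2 fold changes of the 10 genes (filled points) with 95% intervals (lines) from the edgeR fit on 19 mice, for genotype over both diets, diet over both genotypes and the interaction. Open points are the values without Gramd1c−/− high cholesterol mouse 4. All 30 intervals include 0, and 9 of 10 filled points but 1 of 10 open points lie above 0 for the interaction.

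In Gramd1c−/− high cholesterol mouse 4 the 10 genes were 2.03 (C1qa) to 5.02 (Marco) times the median of the other 4 mice of its group, with a median ratio of 2.91. It had the highest level of 19 mice for 9 of them, against 6.5% of all genes tested. Other macrophage genes were high in the same liver. Of 20 genes shared by macrophages, 18 were highest there: Cd74, the chaperone of MHC class II, was at 407 TPM against a median of 108, and Ctss, a lysosomal protease, at 145 against 50.5. Of 17 further Kupffer cell genes 13 were highest, with Cd163, the haemoglobin scavenger receptor, at 6.1 times and Folr2, a folate receptor, at 2.88 times the median of the other mice. The median ratio was 2.54 for the 20 shared genes and 2.18 for these 17.

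Other gene groups were less high in that liver or not high at all. Of 13 transcription factor and signalling genes of Kupffer cells 4 were highest there, with a median ratio of 1.27. Of 11 monocyte genes 6 were highest there, with a median ratio of 1.43. Ly6c2, a marker of inflammatory monocytes, was at 1.15 TPM against 0.376. Among 12 genes of lipid-associated macrophages, which appear in fatty and injured liver, 1 was highest, and the median ratio was 0.831. The median ratio was 1.81 for 3 neutrophil genes, of which 2 were highest there, 1.59 for 8 B and plasma cell genes, 1.51 for 10 endothelial genes and 1.51 for 5 red cell genes. It was 1.22 for 10 T and NK cell genes, 0.99 for 8 hepatocyte genes and 0.955 for 10 stellate cell genes. Of 16 cytokine and chemokine genes 6 were highest there, with a median ratio of 1.44. That ratio was 1.48 for 10 liver X receptor targets, 1.33 for 12 niche signal genes, 1.30 for 15 efferocytosis and scavenger genes and 1.22 for 13 complement genes. The median over all genes tested was 1.07. Its library had 33961735 counts, the second highest of the 19. The relation of these genes to depth is given below.

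Gramd1c+/+ high cholesterol mouse 2 had the lowest level of 19 mice for 8 of the 10 genes, against 5.11% of all genes tested, and their median ratio to the other 4 mice of its group was 0.471. Ratios ran from 0.247 for Marco to 0.61 for C1qc. Of the 20 shared macrophage genes 14 were lowest there, with a median ratio of 0.581, among them Lyz2, the lysozyme of myeloid cells, at 45.9 TPM against 108. Of the 17 further Kupffer cell genes 6 were lowest, with a median ratio of 0.718, and the median ratio was 0.701 for monocyte genes and 0.714 for B and plasma cell genes. It was 1.002 for hepatocyte genes and 0.924 for endothelial genes. Both mice were picked out by their levels of the 10 genes, so their values are a description.

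**Figure D3:**
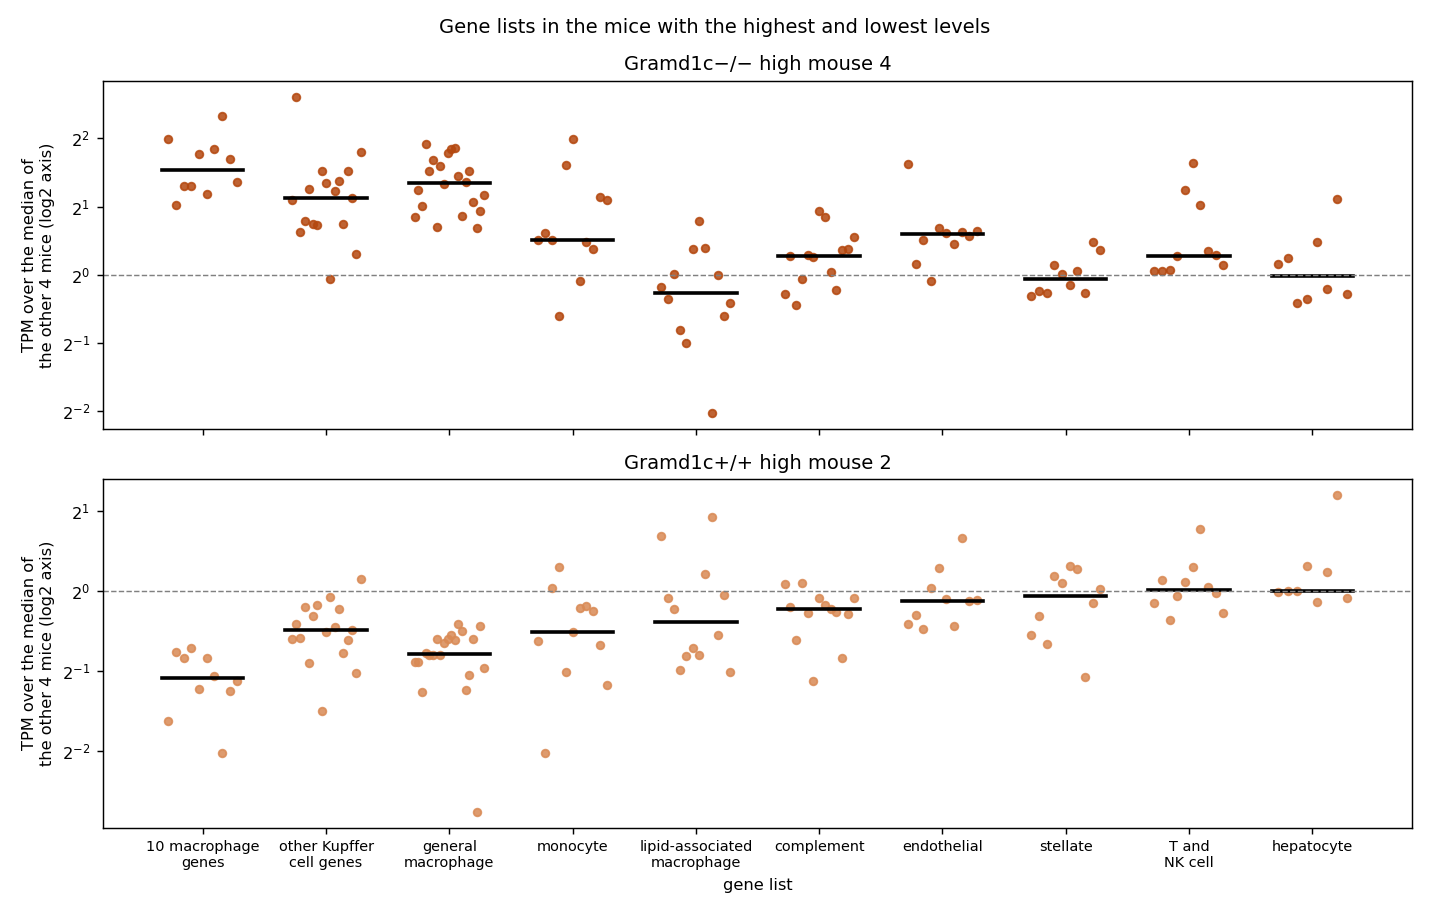
Level of single genes (points) in the mice with the highest and the lowest summed level of the 10 macrophage genes, as the ratio of TPM to the median of the other 4 mice of their group (log2 axis), with the median of each gene list (bars). In mouse 4 the medians of the 10 genes (2.91) and of the shared macrophage genes (2.54) sit above those of the hepatocyte (0.99) and stellate cell (0.955) genes, and in mouse 2 those of the first 2 lists sit below 1.

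To ask whether the 10 genes varied together between mice of one group, group means were removed from log2 CPM and all 45 pairs were compared over the 19 mice. Pearson's r ran from 0.521 (Clec4f and Marco) to 0.96 (Vsig4 and Cd5l), with a median of 0.831, and Spearman's rho from 0.428 to 0.937. In a permutation test within groups with 100000 resamples, adjusted over the 150150 relations of the 10 genes with all other genes tested, 5 of the 45 pairs passed 0.05. Among all those relations 0.0446% passed with a positive r. The 5 were Vsig4 with Cd5l, C1qa with C1qc, Adgre1 with Cd5l, Adgre1 with Csf1r and C1qb with C1qc, each at a permutation adjusted p of 0.0435. For Vsig4 and Cd5l Pearson's r was 0.96 and Spearman's rho 0.937 (permutation p = 1e-05 for both, the smallest that the resamples can give). Each of these genes was the other's closest match among 15015 genes. C1qa and C1qc were likewise each other's closest match, where Pearson's r was 0.953 and Spearman's rho 0.914 (permutation p = 2e-05 and 3e-05).

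The relation was weaker without the livers at the ends. With the 2 mice farthest from the median of 1 of its genes left out for each pair, r ran from 0.227 to 0.922, with a median of 0.636. These mice always included Gramd1c−/− high cholesterol mouse 4 and in 29 of 45 pairs also Gramd1c+/+ high cholesterol mouse 2. The group means removed were still those of all 19 mice, so mouse 4 kept a part in these r. Without mouse 4 alone and with group means taken anew, r of the 45 pairs ran from 0.29 to 0.931, with a median of 0.712. None of these pairs passed the adjusted permutation test. To pass, many relations must share a p at or near the smallest that the resamples can give. The lack of passing pairs therefore does not show that the relation was lost. Without the 2 farthest mice the genes fell into looser sets. Within Clec4f, Vsig4, Timd4 and Cd5l, r without the farthest mice stayed between 0.719 and 0.922. Within the C1q chains it was 0.847 to 0.908, and for Adgre1 with Csf1r it was 0.86. Marco kept 0.604 to 0.786 with the C1q chains and 0.227 to 0.604 with the 4 resident-cell genes. Beside mouse 4, the first range leaves out Gramd1c+/+ low cholesterol mouse 3, the highest for Marco, and the second Gramd1c+/+ high cholesterol mouse 2. The 2 ranges thus rest on different mice. Over all 19 mice they were 0.709 to 0.843 and 0.521 to 0.731. These sets were read from the values and were not tested.

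**Figure D4:**
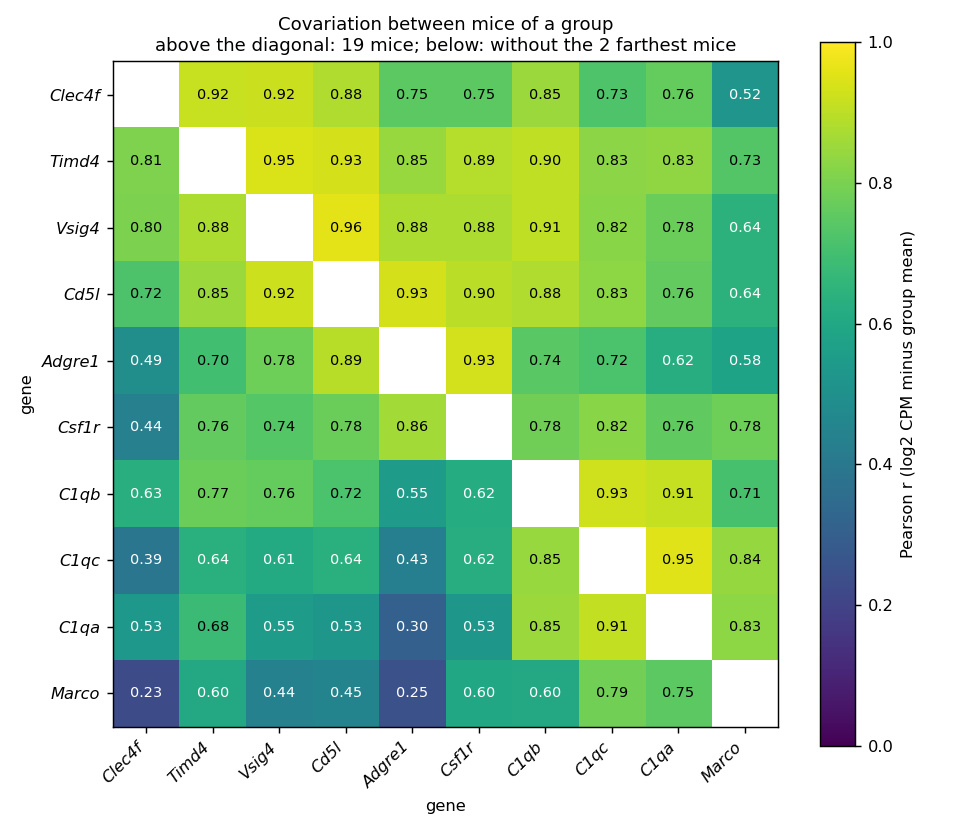
Pearson's r for each pair of the 10 genes on log2 CPM with group means removed, over 19 mice above the diagonal and without the 2 mice farthest from the median below it. The group means are those of all 19 mice on both sides. The lowest value is 0.52 above the diagonal and 0.23 below it, both for Clec4f with Marco.

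**Figure D5:**
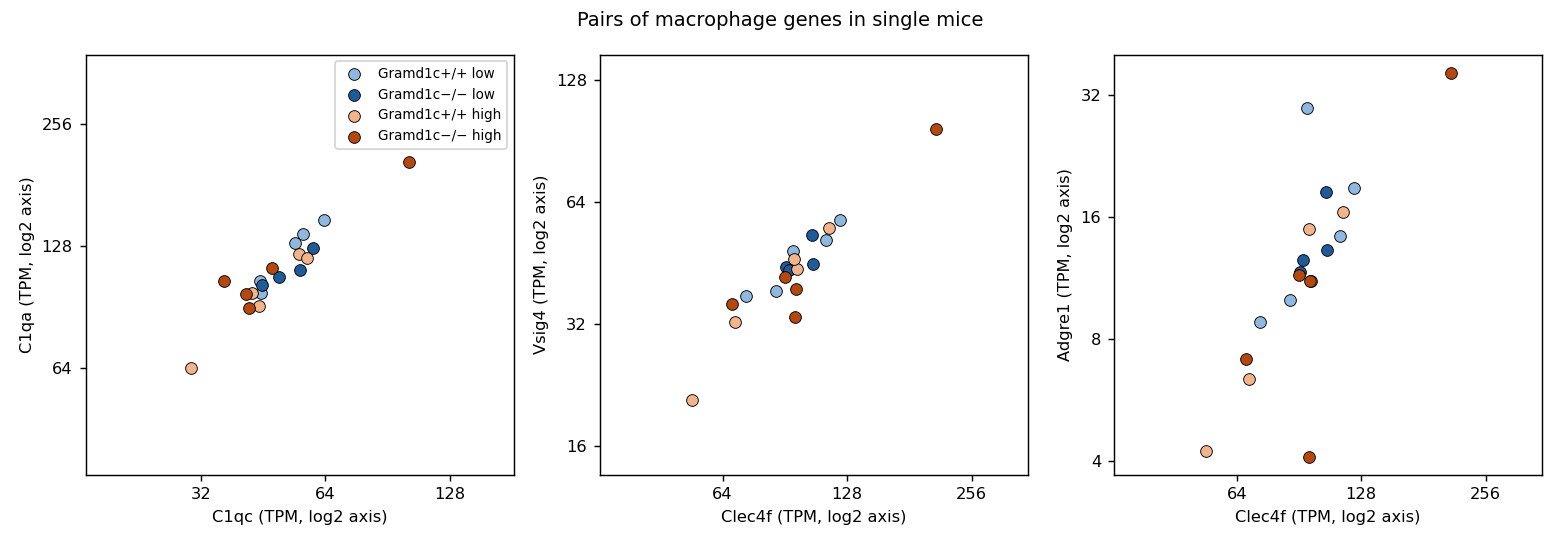
Levels (TPM, log2 axes with the same span) of C1qa against C1qc, Vsig4 against Clec4f and Adgre1 against Clec4f, 1 point per mouse, coloured by genotype and diet. The first 2 panels form narrow bands, and in the third Gramd1c+/+ low cholesterol mouse 3 (29.7 TPM of Adgre1) lies above the other mice and Gramd1c−/− high cholesterol mouse 5 (4.10 TPM) below them at similar Clec4f.

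Pearson's r was also taken within the 2 runs of mouse numbers in the file names, which the labels do not describe. The first run held Gramd1c−/− high cholesterol mouse 4 and the second held Gramd1c+/+ high cholesterol mouse 2. The group means removed were those over both runs, so mouse 4 also had a part in the value of Gramd1c−/− high cholesterol mouse 5, in the second run. The split therefore cannot show whether the relation holds without these livers at the ends. Among the 13 mice of the first run r was 0.652 to 0.978, with a median of 0.886. Among the 6 mice of the second run it was −0.036 to 0.965, with a median of 0.788. The lowest value there was for Adgre1 with Marco. Library size had an r of 0.156 to 0.495 with the 10 genes and a rho of 0.0018 to 0.321 (lowest permutation p = 0.0771, adjusted over 40 relations 0.80) and −0.32 to 0.181 without the 2 farthest mice. The number of genes with a count had an r of −0.58 to −0.094 with them (lowest permutation p = 0.0432, adjusted over 40 relations 0.80) and −0.30 to −0.07 without the 2 farthest mice.

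The genes most like the 10 across mice were found by r to the mean of their standardised values, over the 19 mice with group means removed, and the r are descriptions with no test. The first was Adgre4 (F4/80-like receptor 4), a relative of Adgre1, at 0.955 and 0.939 without the 2 farthest mice. It was followed by Itgb2, the beta chain of the leukocyte integrins (0.942), Ms4a6d (0.941), Cybb, the catalytic subunit of the phagocyte NADPH oxidase (0.939), Cd300e, a myeloid receptor (0.939), and Slc15a3, a lysosomal peptide and histidine transporter (0.934). Pld4, an endosomal nuclease (0.93), Themis2 (0.925), Cfp, which encodes properdin of the alternative complement pathway (0.923), and Treml4 (0.922) completed the 10. Without the 2 farthest mice r was 0.843 to 0.939, and the same 10 genes held the first 10 ranks. They were chosen on these same mice and group means were not taken anew, so the ranks are no separate check. The median r over all genes tested was −0.017.

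The mean of each other gene list, but for the pancreas and adipose lists, was set beside each of the 10 genes, 210 relations in all. With the 20 shared macrophage genes r was 0.71 to 0.98 and rho 0.668 to 0.951, and with 17 further Kupffer cell genes r was 0.71 to 0.93 and rho 0.70 to 0.911. In both lists the permutation p adjusted over the 210 relations was below 0.05 for all 10 genes (highest 0.0363), and without the 2 farthest mice r was 0.602 to 0.875 for the Kupffer cell list and 0.582 to 0.94 for the shared list. With 11 monocyte genes r was 0.62 to 0.91 and rho 0.519 to 0.882, and 7 of the 10 passed the adjusted permutation test. With 13 transcription factor and signalling genes of Kupffer cells 4 of 10 passed, and among those genes Spi1 (PU.1) was closest to the mean of the 10, at r = 0.81, while Maf was at −0.25. With the other 17 lists 1 of 170 relations passed, that of Csf1r with liver X receptor targets (r = 0.717, permutation adjusted p = 0.0279). By Spearman's rho (0.568) it did not pass (permutation adjusted p = 0.107), and without the 2 farthest mice r was 0.446. The r with lipid-associated macrophage genes was −0.28 to 0.084, with endothelial genes 0.071 to 0.48 and with hepatocyte genes −0.30 to 0.35.

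Genes of the same cells and pathways outside the 10 were counted in the same comparisons. Of the 17 further Kupffer cell genes, 1 was called lower and none higher on high cholesterol over both genotypes, where 1.3% of all genes were called. That was Pltp, the phospholipid transfer protein, also a target of the liver X receptor and made by hepatocytes and other cells as well, with a log2 difference of −1.31 ± 0.217 (SE, edgeR adjusted p = 0.0019). It was also called in the Gramd1c+/+ mice alone, where 0.44% of all genes were, at −1.39 ± 0.301 (edgeR adjusted p = 0.0415). Of 10 liver X receptor targets, Pltp was the 1 called lower and Abcg5, an exporter of sterols, the 1 called higher over both genotypes, by 0.67 ± 0.126 (edgeR adjusted p = 0.0063). In the Gramd1c+/+ mice Abcg5 was also called, at 0.82 ± 0.172 (edgeR adjusted p = 0.035). No member of either list was called for genotype or for the interaction, where at most 0.00666% of all genes were called.

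None of the 20 shared macrophage genes, 13 Kupffer cell transcription and signalling genes, 11 monocyte genes, 12 lipid-associated macrophage genes, 12 niche signal genes, 15 efferocytosis and scavenger genes, 13 C1q partner and complement genes or 16 cytokine and chemokine genes tested was called in any of the 7 comparisons by edgeR. At most 1.3% of all genes were called in any of the 7, so the lack of calls in lists of this size tells little. The smallest p for diet over both genotypes, by list, were those of Lgmn (−0.15 ± 0.126, edgeR adjusted p = 0.538), Maf (0.34 ± 0.129, 0.183), Plac8 (0.30 ± 0.131, 0.236) and Lpl, lipoprotein lipase (0.73 ± 0.192, 0.0688). For the niche, scavenger, complement and cytokine lists they were those of Dll1 (0.37 ± 0.192, edgeR adjusted p = 0.308), Scarf1, a scavenger receptor (0.76 ± 0.203, 0.0717), Calr, calreticulin, which binds C1q (−0.45 ± 0.124, 0.0825), and Cxcl1 (0.83 ± 0.392, 0.268). For genotype over both diets every edgeR adjusted p of the genes named by list was 0.999, among them Fcgr3 (0.32 ± 0.184), Gpnmb (0.57 ± 0.246) and Il34 (−0.32 ± 0.154). The median log2 difference of the 20 shared macrophage genes was 0.0084 between diets and 0.145 between genotypes, against 0.017 and 0.0081 over all genes. Between genotypes it was 0.264 on high and 0.0659 on low cholesterol. Gramd1c−/− high cholesterol mouse 4, highest of all mice for 18 of the 20, is in the first of these.

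Markers of other cells that the livers could hold were counted too. None of the endothelial (10 tested), stellate (10), T and NK cell (10), B and plasma cell (8), neutrophil (3), dendritic cell (7), bile duct (6), red cell (5), hepatocyte (8), proliferation (8), pancreas (1) and adipose (2) genes was called in any of the 7 comparisons by edgeR. With at most 1.3% of all genes called in any of the 7, this too tells little. Of the adrenal genes 2 were called lower by diet in the Gramd1c+/+ mice, Hsd3b1 and Cyp21a1, and the 1 library with high adrenal transcripts was in this comparison. In that library the 10 macrophage genes summed to 703 TPM, and 7 of the 10 genes lay within the range of the other 4 mice of its group, the exceptions being Clec4f, Vsig4 and C1qb. Gene lists summed to 22.2 to 52.5 TPM for monocytes, 2.88 to 8.86 TPM for neutrophils and 149 to 291 TPM for endothelium over the 19 livers, and the part of these cells in the macrophage levels was not tested.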

How the data were processed

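Liver RNA of 19 mice was measured by sequencing of polyA RNA. The authors deposited raw gene counts with gene lengths for each mouse. The submitters' processing notes name STAR 2.5.2b and GRCm38, while the read counter, its use of strand and its gene annotation were not given in the sources used here. Symbols came from a reference table. TPM were computed here from deposited counts and lengths. Libraries held 27149972 to 34669648 counts. Counts were tested with edgeR 4.0.16 (quasi-likelihood, TMM, filterByExpr with a minimum count of 10, 1 coefficient per group over all 19 mice), with Benjamini-Hochberg adjustment over 15016 genes and a threshold of 0.05. DESeq2 1.42.0 and limma 3.58.1 (voom with sample weights) were alternatives, beside other scaling, filters, samples, a replicate block, a term for runs of mouse numbers and leaving out each mouse. Correlations used log2 CPM (prior count 2) minus group means, with two-sided permutation within groups (100000 resamples). For pairs of the 10 genes and genes most like them, group means stayed those of all 19 mice when the 2 farthest were left out. The same holds for pairs within 1 run of mouse numbers. They were adjusted over all 150150 relations of the 10 genes with other genes, where adjustment over 45 pairs had been planned. The 10 genes and the other lists were chosen with earlier results of these data known. Named from each other list were called genes or, with none, those with the smallest p, and the 10 genes with the highest r to the mean of the 10. Genes named in single mice were chosen after their values were seen. Scripts were tested on simulated data.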

Additional observations from a re-analysis of the deposited data

Results flagged for a closer look

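In 14 of 40 sets of 1 gene in 1 group, the highest or lowest mouse lay apart from the others by Dixon's criterion, which chance meets in about 1 of 20 sets. The 10 genes vary together, so the sets are not independent. In 10 of the 14 the mouse was Gramd1c−/− high cholesterol mouse 4, above the other 4 mice of its group. There Clec4f was at 210.4 TPM against 67.4 to 96.4, Vsig4 was at 96.9 TPM against 33.4 to 41.9 and Timd4 was at 23.1 TPM against 6.51 to 7.71. The secreted protein gene Cd5l was at 374 TPM against 84.7 to 149. The general macrophage gene Adgre1 was at 36.3 TPM against 4.10 to 11.5, Csf1r was at 61.1 TPM against 14 to 23.5 and Marco was at 14.4 TPM against 1.62 to 3.72. Of the C1q chains, C1qa was at 206 TPM against 89.9 to 113, C1qb was at 177 TPM against 64.8 to 75.7 and C1qc was at 102 TPM against 36.4 to 47.6.

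In Gramd1c+/+ high cholesterol mouse 2, C1qb was at 45.7 TPM against 78.7 to 88.8 in the other mice of its group. In Gramd1c−/− low cholesterol mouse 2, Csf1r was at 32.7 TPM against 23.1 to 24.1 and Vsig4 was at 53.1 TPM against 43.5 to 45. In Gramd1c+/+ low cholesterol mouse 3, Marco was at 22.4 TPM against 3.05 to 8.63.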

How the results depend on the processing

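None of the 10 genes was called in any of the 7 comparisons under any alternative, and over the 30 values averaged over diets or genotypes or for the interaction the lowest adjusted p was 0.144 (edgeR), for Adgre1 by diet without Gramd1c−/− high cholesterol mouse 4. Some log2 fold changes of the 10 genes changed sign. For diet over both genotypes Clec4f was at 0.012 with a stricter filter, 0.0075 with a term for the runs of mouse numbers and 0.024 without the 2 libraries that stood apart over all genes, a setting chosen after seeing the data, under which C1qb was at 0.0048. Timd4 was at −0.0057 with no filter and −0.019 by voom. For genotype over both diets, the term for runs gave −0.34 for Adgre1, −0.023 for Timd4, −0.12 for Csf1r and −0.000998 for C1qc. DESeq2 and RLE scaling reversed none of the 30 values.

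Leaving out each mouse in turn reversed 21 of the 30 in at least 1 case. The ranges were −0.22 to 0.015 for C1qb, −0.18 to 0.15 for Cd5l, −0.16 to 0.051 for Clec4f, −0.79 to 0.018 for Marco and −0.23 to 0.091 for Timd4 for diet. They were −0.29 to 0.24 for Adgre1, −0.076 to 0.12 for C1qa, −0.080 to 0.14 for C1qb, −0.094 to 0.14 for C1qc, −0.13 to 0.31 for Csf1r, −0.14 to 0.18 for Timd4 and −0.052 to 0.17 for Vsig4 for genotype, and −0.11 to 0.79 for Adgre1, −0.072 to 0.41 for C1qb, −0.17 to 0.32 for C1qc, −0.14 to 0.52 for Cd5l, −0.012 to 0.43 for Clec4f, −0.22 to 0.46 for Csf1r, −1.24 to 0.14 for Marco, −0.048 to 0.62 for Timd4 and −0.091 to 0.38 for Vsig4 for the interaction. The median r of the 45 pairs was 0.712 to 0.887 over mice left out. With log2(TPM + 1), 13 of 45 pairs passed the threshold, against 5 with log2 CPM and 0 without Gramd1c−/− high cholesterol mouse 4 (added after seeing the data), and the cause was not tested.

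Samples share only a replicate number: deviations of same-numbered mice had a mean r of −0.069 over 27 pairs, against 0.017 over 108 other pairs. With the number as a replicate block Adgre1 was at −0.066 for genotype and Timd4 at −0.041 for diet, none of the 10 genes was called, and the block gave 122 calls over all genes for diet over both genotypes, against 195 without it. DESeq2 gave 600 there. It gave 91 against 49 in the Gramd1c−/− mice and 110 against 66 in the Gramd1c+/+ mice. Leaving out 1 mouse gave 119 (without Gramd1c−/− low cholesterol mouse 2) to 308 (without Gramd1c+/+ low cholesterol mouse 5) for diet over both genotypes. With 4 or 5 mice a group, changes within the intervals given cannot be told from none.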
